A study of Mus musculus with 36 samples.

Results

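The fasting response of Pik3r1 WT/Y657* liver was taken as the contrast between 6 livers of WT/Y657* mice fasted for 16 h and 6 livers of WT/Y657* mice fed chow ad libitum, chosen by genotype and feeding state alone, and these are 12 of the 36 liver libraries of the study. WT/Y657* mice carry 1 knock-in allele of Pik3r1 with a premature stop codon in place of the tyrosine codon that gives the allele its name, placed there by gene targeting in stem cells together with a neomycin cassette between loxP sites, and 1 wild-type allele, in every cell of the body. All animals were male, 16 weeks old and on a C57Bl/6J background, and fed and fasted livers came from separate mice. Fed mice were killed before the overnight fast and fasted mice after it, and the hour of killing is not given in the sources used here, so that time of day and lack of food cannot be told apart. Wild-type mice (WT/WT) fed and fasted in the same way, 6 of each, serve as the comparison, and the libraries of mice refed for 6 h entered the model only through the shared estimate of spread.

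Pik3r1 encodes p85α, p55α and p50α, the regulatory subunits through which the insulin receptor recruits the catalytic subunit of PI3K, and mutations that disrupt their C-terminal SH2 domain blunt that recruitment. In liver, insulin after a meal raises the transcription of glycolytic and lipogenic genes through PI3K and AKT. During a fast insulin falls, glucagon and glucocorticoids rise, and fatty acids released by adipose tissue reach the hepatocyte, where they serve as ligands of the nuclear receptor PPARα and as fuel for oxidation and ketone body synthesis, while amino acids and glycerol feed glucose production. How far this programme ran in livers whose PI3K signalling is impaired is the question that the contrast addresses.

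Total estimated counts ranged from 11375514 to 16246930 in fed and from 9716801 to 14630431 in fasted WT/Y657* mice. A standard error (SE) given below is the absolute log2 fold change divided by the square root of the F statistic of the edgeR quasi-likelihood test. It rests on the spread between mice within groups, estimated over all 6 groups, and not on the fed and fasted WT/Y657* mice alone. On the first principal component of all 36 libraries (21.5% of variance), fasted WT/Y657* livers lay between -39.7 and -29.6. Fed WT/Y657* livers fell into separate sets by mouse number (ALC in a name marks fed and ONF fasted mice, MT marks WT/Y657* and WT wild-type mice). Mice ALC_MT_857, ALC_MT_858 and ALC_MT_859 lay between 34.5 and 43.6, among the fed wild-type mice (30.8 to 43.4), whereas mice ALC_MT_866, ALC_MT_868 and ALC_MT_869 lay between 9.09 and 10.1, apart from all other fed mice. The fasted WT/Y657* mice also came from a lower-numbered series (ONF_MT_806, ONF_MT_826 and ONF_MT_827) and a higher-numbered series (ONF_MT_921, ONF_MT_922 and ONF_MT_923), and neither series holds a fed mouse, so that series and feeding state cannot be told apart. Among fed wild-type mice, ALC_WT_847 and ALC_WT_849 had glucocorticoid-responsive list averages (log2 CPM centred on each gene, then averaged over the list) of 0.59 and 0.89 and acute-phase list averages of 2.13 and 1.92, against at most 0.019 and 0.78 in the other 4. Counts within or without these sets are given beside several results. Of 12 hepatocyte markers 3 were called higher on fasting and 0 lower, beside 15.2% and 17.7% of all genes tested.

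Fasting changed the transcript level of 4591 of 13945 genes tested in WT/Y657* liver, or 32.9% (edgeR quasi-likelihood test, two-sided, Benjamini-Hochberg adjusted p below 0.05). Of all genes tested, 15.2% were called higher and 17.7% lower, and the median log2 fold change of all genes was -0.0079. Most calls were small, with a median absolute log2 fold change of 0.50, and 810 called genes (413 higher, 397 lower) changed at least 2-fold. In 11.5% of genes the 6 fasted and 6 fed mice did not overlap (4.96% with the fasted mice higher, 6.57% with them lower). Wild-type mice gave 4464 calls, and 2479 genes were called in both genotypes with the same direction, which are 54.0% of the WT/Y657* calls and 55.5% of the wild-type calls. The difference of the 2 responses was itself called for 607 genes, or 4.35%, and of 2035 genes called in WT/Y657* mice and not in wild-type mice it was called for 235 (11.5%). With ALC_MT_857, ALC_MT_858 and ALC_MT_859 alone as the baseline 4355 genes were called, and with ALC_MT_866, ALC_MT_868 and ALC_MT_869 alone 3176, of which 1358 were higher.

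**Figure D1:**
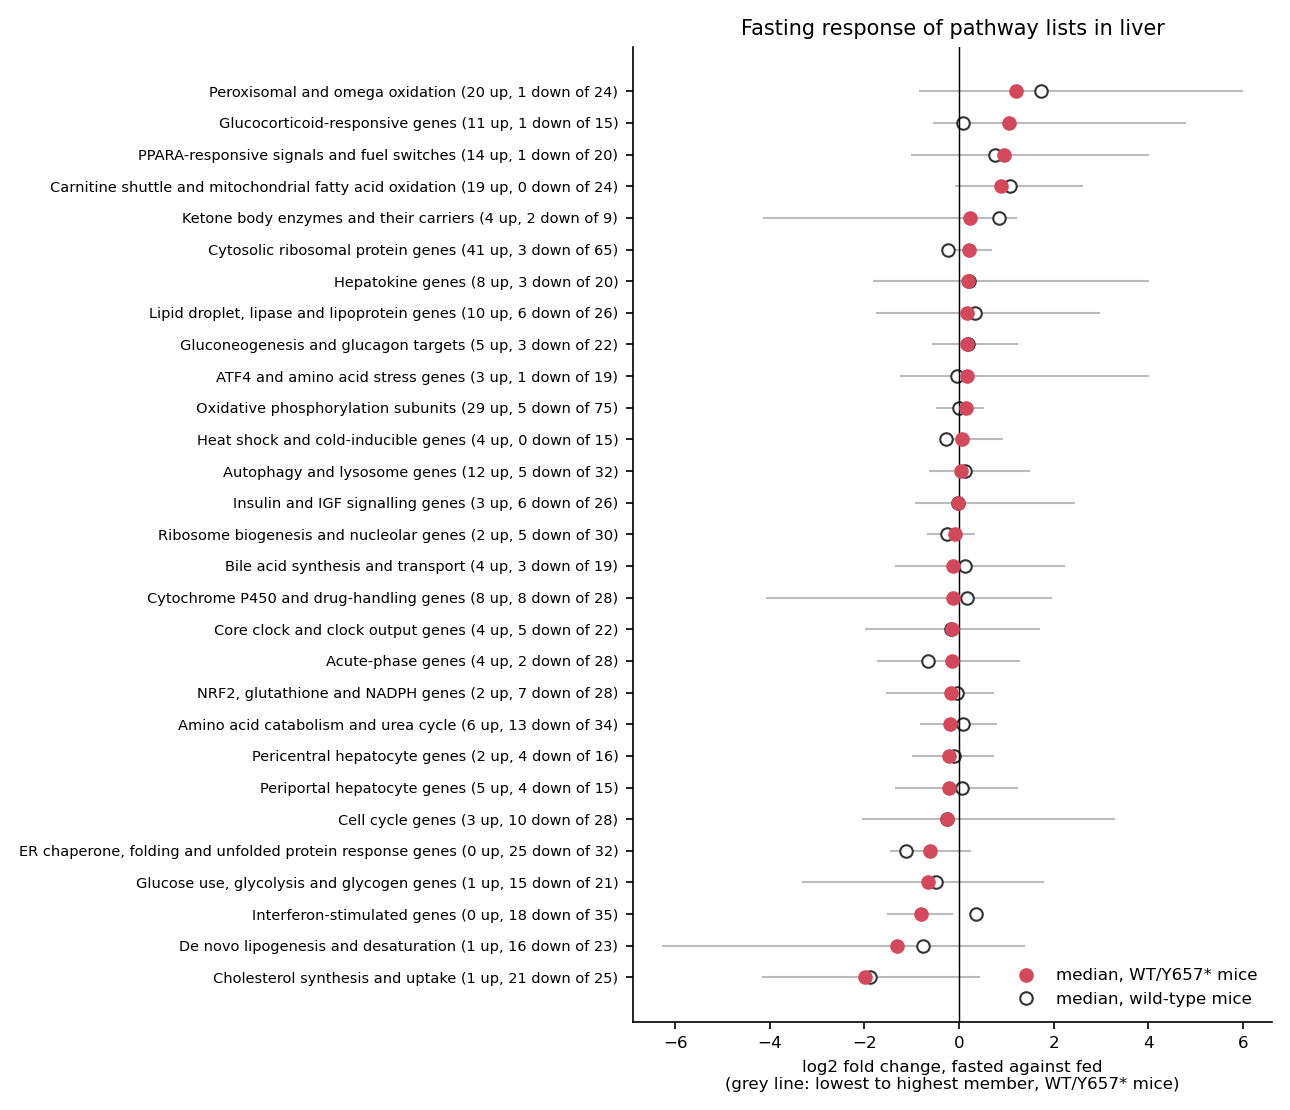
Median log2 fold change on fasting of the members of 29 gene lists in WT/Y657* mice (filled points) and wild-type mice (open points), with a grey line from the lowest to the highest member in WT/Y657* mice and the counts of members called higher and lower in WT/Y657* mice beside each name. Fatty acid oxidation lists lie to the right, with medians up to 1.22, and cholesterol synthesis and lipogenesis to the left, with medians down to -1.98. Lists with medians of opposite sign in the genotypes include the interferon-stimulated, ribosomal protein, amino acid catabolism, bile acid, ATF4 and heat shock lists. Some of these medians are small: the wild-type ATF4 median was -0.044, and 0.038 without ALC_WT_847 and ALC_WT_849. Responses called different between genotypes numbered 0 in the ATF4, 1 in the bile acid, 3 in the amino acid catabolism and 3 in the heat shock list.

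Of the 12 genes that rose most, 6 were Cyp4a fatty acid hydroxylases or acyl-CoA thioesterases. Genes were taken into this count and into that of the 12 that fell most only where the fed and fasted mice did not overlap. Cyp4a14, a fatty acid omega-hydroxylase (GRCm38 chromosome 4, 115486200 to 115496142), was at 17.5, 93.1 and 137 CPM (counts scaled to library size by TMM, given here and below as the lowest, median and highest of 6 mice) in fed mice and at 4107, 5465 and 5943 CPM in fasted mice, a log2 fold change of 6.01 (SE 0.52, adjusted p = 1.6e-10). ALC_MT_857, ALC_MT_858 and ALC_MT_859 were at 17.5, 64.1 and 27.1 CPM, below the other fed mice. Its neighbours Cyp4a10 and Cyp4a31 followed with log2 fold changes of 4.99 (SE 0.45, adjusted p = 4.9e-10) and 4.05 (SE 0.31, adjusted p = 1.5e-12). The Cyp4a genes are close copies, as are the acyl-CoA thioesterases Acot1, Acot2 and Acot3, which lie side by side on chromosome 12 and rose by 4.42, 3.61 and 3.46 on the log2 scale, so that reads may have been divided between neighbours and the single values are uncertain. Fgf21, the fasting hormone of liver, was at 0.613, 1.21 and 2.02 CPM in fed and 10.9, 14.5 and 37.0 CPM in fasted mice (log2 fold change 4.01, SE 0.80, adjusted p = 2.2e-04). Mfsd2a, a transporter of lysophosphatidylcholine, rose (5.65 to 34.9 CPM in fed and 85.5 to 252 CPM in fasted mice, log2 fold change 3.69, SE 0.52, adjusted p = 1.5e-06), with fed mouse ALC_MT_869 far above the other fed mice. Rab30, a small GTPase of the Golgi, rose (2.44 to 4.63 CPM in fed and 28.5 to 47.0 CPM in fasted mice, log2 fold change 3.33, SE 0.18, adjusted p = 3.8e-16), and Unc79, a subunit of the NALCN sodium leak channel, had 9 counts in the 6 fed mice together and 74 in the 6 fasted mice. The remaining genes of the 12 that rose most were the metallothioneins Mt1 and Mt2, described with the glucocorticoid-responsive genes.

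The 12 genes that fell most included Thrsp, Fasn, Srebf1, Pnpla3 and Aacs, all of the lipogenesis list. Thrsp, a nuclear protein that promotes lipogenesis, was at 186, 892 and 1399 CPM in fed and 7.79, 10.5 and 16.0 CPM in fasted mice, a log2 fold change of -6.28 (SE 0.59, adjusted p = 1.2e-09). Hsd3b5, a steroid reductase of male mouse liver, fell (72.8 to 259 CPM in fed and 0.211 to 22.5 CPM in fasted mice, log2 fold change -4.54, SE 0.63, adjusted p = 1.3e-06), and the selenium-binding protein Selenbp2 fell likewise (194 to 1272 CPM in fed and 34.2 to 72.8 CPM in fasted mice, log2 fold change -3.64, SE 0.48, adjusted p = 7.0e-07). Weakly expressed genes were also among the 12: Chrna4, a nicotinic receptor subunit, had 265 counts in the 6 fed mice together and 4 in the 6 fasted mice, the dynein heavy chain Dnahc5 had 91 and 4, the serpin Serpina9 had 152 and 7, and the ephrin Efna3 had 208 and 11. For these the size of the fold change rests on few reads. Fasn, Srebf1, Pnpla3 and Aacs are given with their pathways.

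**Figure D2:**
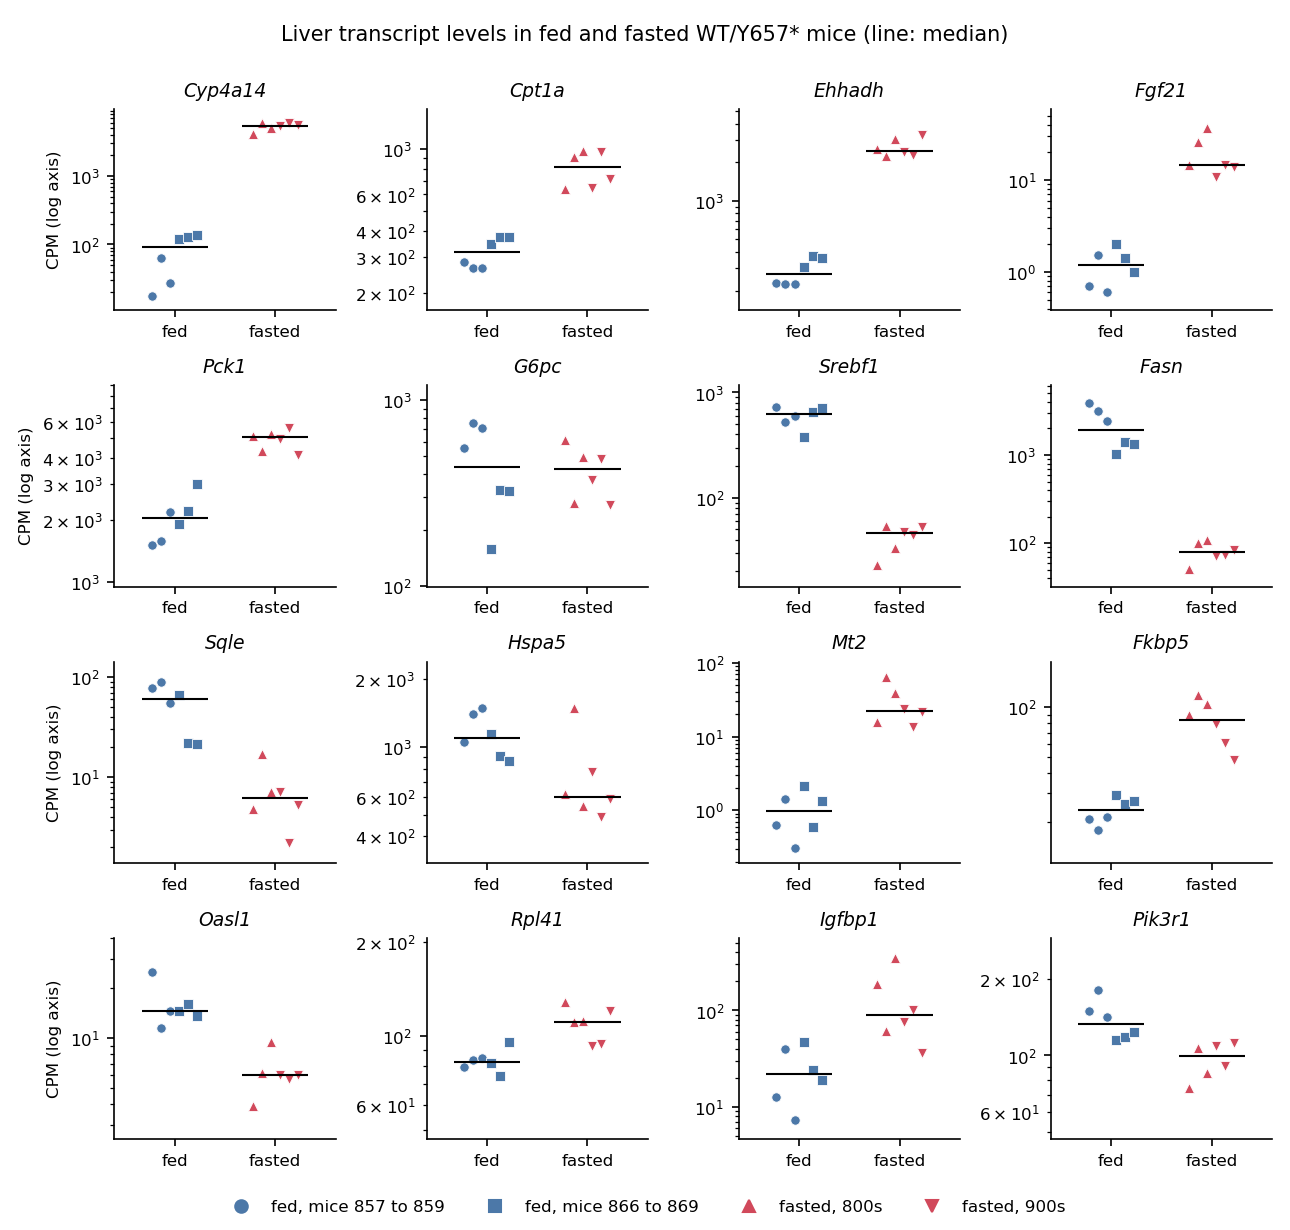
CPM on a log axis of 16 genes in each fed (blue) and fasted (red) WT/Y657* mouse, with the median as a line and symbols for the mouse number series. Cyp4a14, Cpt1a, Ehhadh, Fgf21, Pck1, Srebf1, Fasn, Sqle, Mt2, Fkbp5, Oasl1 and Pik3r1 show no overlap between fed and fasted mice, whereas G6pc, Hspa5, Rpl41 and Igfbp1 do. Cyp4a14, Fgf21, Mt2, Srebf1 and Fasn are among the genes that rose or fell most, for which the absence of overlap was a condition of choice. For Fasn, Cyp4a14, G6pc, Cpt1a, Ehhadh, Fkbp5 and Pik3r1 the fed mice part by number.

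Genes of fatty acid oxidation rose. Of 24 genes of the carnitine shuttle and mitochondrial beta-oxidation, 19 were higher and 0 lower on fasting, with a median log2 fold change of 0.88 and no overlap for 15. Cpt1a, which forms acylcarnitines at the outer mitochondrial membrane and is taken as the rate-limiting step, rose without overlap (264 to 375 CPM in fed and 637 to 972 CPM in fasted mice, log2 fold change 1.34, SE 0.11, adjusted p = 3.1e-12). The carnitine uptake transporter Slc22a5 gave the largest change in the list, an increase (10.04 to 15.2 CPM in fed and 73.7 to 96.6 CPM in fasted mice, log2 fold change 2.63, SE 0.15, adjusted p = 3.8e-15). Further along the route, the carnitine-acylcarnitine carrier Slc25a20 rose by 1.26 on the log2 scale, Cpt2, which releases acyl-CoA in the matrix, by 0.77, and the medium-chain dehydrogenase Acadm by 1.32. Fasted mouse ONF_MT_806 was the lowest of the fasted mice for Acadm, at 420.4 CPM against 638 CPM in the next mouse, and for Slc25a20, at 162 CPM against 237 CPM, yet stayed above every fed mouse. In wild-type mice 22 of the 24 were higher, with a median of 1.07, and the response of 1 member differed between genotypes, of 0 without ALC_WT_847 and ALC_WT_849.

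In the peroxisome and on the omega-oxidation route, 20 of 24 genes were higher and 1 lower, with a median of 1.22. Ehhadh, the bifunctional enzyme of peroxisomal beta-oxidation, was at 224, 268 and 374 CPM in fed and 2244, 2457 and 3239.8 CPM in fasted mice, a log2 fold change of 3.19 (SE 0.26, adjusted p = 2.0e-11). The single member that fell was Pecr, a peroxisomal reductase of fatty acid elongation. Wild-type mice gave 22 higher and 1 lower with a median of 1.74.

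Ketone body genes moved with less unity, with 4 of 9 higher and 2 lower. The monocarboxylate carrier Slc16a1, which lets ketone bodies cross the membrane, rose (65.1 to 93.9 CPM in fed and 142 to 215 CPM in fasted mice, log2 fold change 1.05, SE 0.10, adjusted p = 3.5e-10). Bdh1, which reduces acetoacetate to 3-hydroxybutyrate, was not called, at 149, 178 and 191 CPM in fed and 121, 222 and 255 CPM in fasted mice (log2 fold change 0.24, adjusted p = 0.0996). In wild-type mice Bdh1 rose by 0.97, and the difference of the responses was -0.73 (SE 0.16, adjusted p = 0.00661), one of 7 differences among the genes named here that were called under every alternative tried. Aacs, a cytosolic enzyme that turns acetoacetate back towards lipid synthesis, fell (85.2 to 233 CPM in fed and 4.69 to 13.5 CPM in fasted mice, log2 fold change -4.14, SE 0.54, adjusted p = 4.5e-07).

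Other PPARα-responsive signals and fuel switches rose, 14 of 20 against 1 lower, with a median of 0.95. Angptl4, an inhibitor of lipoprotein lipase, was at 18.8, 40.0 and 88.0 CPM in fed and 199.7, 235 and 273 CPM in fasted mice (log2 fold change 2.25, SE 0.37, adjusted p = 1.6e-05). Pdk4, the kinase that shuts pyruvate dehydrogenase, rose by 1.61 (SE 0.31, adjusted p = 1.1e-04) with overlapping groups. Ppara itself rose by 0.50 (SE 0.10, adjusted p = 1.6e-04), its coactivator Ppargc1a by 0.99 and Creb3l3, a fasting-activated transcription factor of the hepatocyte, by 0.78. Plin2, the coat protein of lipid droplets, rose without overlap (323 to 478 CPM in fed and 758 to 1239 CPM in fasted mice, log2 fold change 1.23, SE 0.11, adjusted p = 9.6e-11). Its difference from the wild-type response, -0.53 (SE 0.16, adjusted p = 0.0472), was -0.42 (adjusted p = 0.169) without ALC_WT_847 and ALC_WT_849.

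Genes of glucose production moved in both directions. Of 22, 5 were higher and 3 lower, with a median of 0.17, and with ALC_MT_866 to ALC_MT_869 alone 2 were higher, against 15.2% and 17.7% of all genes in the whole comparison. Pck1, the cytosolic enzyme that makes phosphoenolpyruvate, rose without overlap, at 1524, 2060.3 and 3002 CPM in fed and 4144, 5056 and 5629 CPM in fasted mice (log2 fold change 1.24, SE 0.22, adjusted p = 4.5e-05). G6pc, the glucose-6-phosphatase of the last step, was at 158, 439.7 and 753 CPM in fed and 272, 428 and 612 CPM in fasted mice and was not called (log2 fold change -0.17, SE 0.46, adjusted p = 0.816). Here the fed mice parted by number: mice ALC_MT_857, ALC_MT_858 and ALC_MT_859 were at 551 to 753 CPM and mice ALC_MT_866, ALC_MT_868 and ALC_MT_869 at 158 to 328 CPM, and the fasted mice ranged across both sets. Fbp1, fructose-1,6-bisphosphatase, fell by 0.54 on the log2 scale (SE 0.12, adjusted p = 7.0e-04) in WT/Y657* mice and rose by 0.52 in wild-type mice, a difference of -1.06 (SE 0.17, adjusted p = 5.8e-04) that was called under every alternative tried. Foxo3, a transcription factor that AKT restrains, fell (73.6 to 85.9 CPM in fed and 44.3 to 61.2 CPM in fasted mice, log2 fold change -0.58, SE 0.088, adjusted p = 2.7e-06). Klf15 and Tat, a factor and an enzyme of amino acid-driven glucose production, were not called, with log2 fold changes of 0.25 and 0.28.

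Genes of glucose use fell. Of 21 genes of glucose phosphorylation, glycolysis and glycogen, 15 were lower and 1 higher, with a median of -0.66. Pklr, the liver pyruvate kinase, was at 96.4, 283 and 514 CPM in fed and 23.2, 27.6 and 39.6 CPM in fasted mice, a log2 fold change of -3.33 (SE 0.35, adjusted p = 1.1e-08). Mlxipl, the carbohydrate-sensing factor ChREBP, fell by 0.66 on the log2 scale (SE 0.18, adjusted p = 0.00568), and Ppp1r3b, which directs a phosphatase to glycogen, fell by 1.02 (SE 0.28, adjusted p = 0.00439). Pygl, the liver glycogen phosphorylase, fell (543 to 934 CPM in fed and 219 to 302 CPM in fasted mice, log2 fold change -1.66, SE 0.12, adjusted p = 3.6e-13). In this list the response of 5 members lay below that of wild-type mice, and of 1 without ALC_WT_847 and ALC_WT_849.

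Lipogenic genes fell, with 16 of 23 lower, 1 higher and a median of -1.31. Srebf1, which encodes the insulin-induced factor SREBP-1 and whose count here sums its isoforms, was at 379, 622 and 729 CPM in fed and 22.8, 45.9 and 54.0 CPM in fasted mice, a log2 fold change of -3.81 (SE 0.21, adjusted p = 3.8e-15). The lowest fed mouse was far above the highest fasted mouse. In wild-type mice the log2 fold change was -2.58, and the difference of -1.24 (SE 0.27, adjusted p = 0.00775) was called under every alternative tried. Fasn, fatty acid synthase, fell, at 1034, 1919 and 3843 CPM in fed and 51.4, 78.8 and 108 CPM in fasted mice (log2 fold change -4.75, SE 0.41, adjusted p = 1.7e-10). ALC_MT_857, ALC_MT_858 and ALC_MT_859 had 2428 to 3843 CPM of Fasn and ALC_MT_866, ALC_MT_868 and ALC_MT_869 had 1034 to 1411 CPM. ATP-citrate lyase (Acly) had a log2 fold change of -2.97, the elongase Elovl6 of -2.90, malic enzyme (Me1) of -1.27, the acetyl-CoA carboxylase activator Mid1ip1 of -3.39 and Pnpla3, a lipid droplet hydrolase controlled by SREBP-1, of -3.63, all called and without overlap. For Pnpla3, as for Srebf1 and Fasn, the absence of overlap was a condition for being counted among the genes that fell most. Scd1, the main desaturase, was not called, at 5078, 12921 and 16349 CPM in fed and 4134, 6231 and 6952 CPM in fasted mice (log2 fold change -0.97, SE 0.49, adjusted p = 0.133). The member that rose was Insig2, which retains SREBP in the endoplasmic reticulum.

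Genes of cholesterol synthesis and uptake fell, 21 of 25 with a median of -1.98 and no overlap for 20. Squalene epoxidase (Sqle) was at 21.5, 60.5 and 88.8 CPM in fed and 2.22, 6.22 and 17.2 CPM in fasted mice and fell (log2 fold change -2.95, SE 0.50, adjusted p = 2.8e-05), with fasted mouse ONF_MT_826 the highest of the fasted mice. The sterol desaturase Sc5d fell (493 to 678 CPM in fed and 131 to 204 CPM in fasted mice, log2 fold change -1.74, SE 0.19, adjusted p = 5.7e-09), and so did Insig1, the sterol-dependent brake that SREBP-2 induces (396 to 743 CPM in fed and 55.2 to 144 CPM in fasted mice, log2 fold change -2.68, SE 0.30, adjusted p = 2.0e-08). The groups did not overlap for any of these genes. Srebf2, the gene of that factor, fell by 0.64 (SE 0.15, adjusted p = 0.00123). The sterol response element CACCCCAC, searched on both strands, was in the promoters of 1 of 17 matched members (5.88%), against 3.30% of all genes.

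The targeted gene and the insulin pathway were next examined. Pik3r1 (chromosome 13, 101680563 to 101768217, minus strand) was at 115, 133 and 182 CPM in fed and 74.5, 99.1 and 112 CPM in fasted WT/Y657* mice. The fed mice parted by number, with ALC_MT_857 to ALC_MT_859 at 142 to 182 CPM and ALC_MT_866 to ALC_MT_869 at 115 to 123 CPM. The log2 fold change of Pik3r1 was -0.52 (SE 0.10, adjusted p = 8.7e-05), that of wild-type mice -0.53, and the difference 0.011 (SE 0.14, adjusted p = 0.983). Gene counts sum both alleles and so do not check the genotype. Among 26 insulin and IGF signalling genes 3 were higher, 6 lower and 17 not called, with a median of -0.027. These are 11.5% higher and 23.1% lower, beside 15.2% and 17.7% of all genes. Igfbp1, an insulin-repressed IGF binding protein, was at 7.36, 21.7 and 46.8 CPM in fed and 36.1, 89.3 and 352 CPM in fasted mice, which overlap (log2 fold change 2.45, SE 0.69, adjusted p = 0.00694). Its homologue Igfbp2 rose (153 to 184 CPM in fed and 241 to 687 CPM in fasted mice, log2 fold change 1.26, SE 0.20, adjusted p = 8.3e-06), and the insulin receptor substrate Irs2 by 0.93 on the log2 scale (SE 0.28, adjusted p = 0.00934). The insulin receptor, Insr, was at 139.6, 162 and 229 CPM in fed and 157, 178 and 200.1 CPM in fasted mice and was not called (log2 fold change -0.015, SE 0.089). Ghr, the growth hormone receptor, fell (log2 fold change -0.78, SE 0.12, adjusted p = 4.4e-06), whereas the IGF1 transcript Igf1, its target, was not called (log2 fold change -0.13, SE 0.086). None of the 26 responses was called different between genotypes.

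On lipid droplets and lipoproteins 10 of 26 genes were higher and 6 lower (38.5% and 23.1%, beside 15.2% and 17.7% of all genes). Pnpla2, adipose triglyceride lipase, rose (27.5 to 34.4 CPM in fed and 49.6 to 83.4 CPM in fasted mice, log2 fold change 1.05, SE 0.10, adjusted p = 9.5e-11), and its inhibitor G0s2 rose too (41.4 to 64.6 CPM in fed and 116 to 293 CPM in fasted mice, log2 fold change 1.66, SE 0.28, adjusted p = 2.0e-05). Plin5, which ties droplets to mitochondria, rose by 1.81 on the log2 scale (SE 0.16, adjusted p = 1.3e-10). Apoa4, an apolipoprotein of triglyceride-rich particles, was at 75.9, 124 and 165 CPM in fed and 218, 535 and 3175 CPM in fasted mice, with fasted mouse ONF_MT_827 at 3175 CPM and the next at 850.5 CPM (log2 fold change 2.92, SE 0.57, adjusted p = 1.9e-04). Of 19 bile acid genes 4 were higher and 3 lower (21.1% and 15.8%), shares near those of all genes. Abcb11, the bile salt export pump, fell (962 to 1045 CPM in fed and 395 to 584 CPM in fasted mice, log2 fold change -0.99, SE 0.10, adjusted p = 2.4e-10), while Abcb4, the phospholipid flippase beside it in the canalicular membrane, rose (242 to 365 CPM in fed and 604 to 708.3 CPM in fasted mice, log2 fold change 1.07, SE 0.090, adjusted p = 9.5e-12). Cyp7a1, the rate-limiting enzyme of bile acid synthesis, was not called (log2 fold change -0.56, SE 0.35), and Cyp8b1, which sets the share of cholic acid, rose by 1.004 (SE 0.29, adjusted p = 0.00731).

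Glucocorticoid-responsive genes rose, 11 of 15 with a median of 1.05, against 2 higher and 2 lower with a median of 0.088 in wild-type mice, where the counts were 3 higher and 3 lower and the median 0.15 without ALC_WT_847 and ALC_WT_849. Mt2, a metallothionein (chromosome 8, 94172664 to 94173568), was at 0.306, 0.981 and 2.16 CPM in fed and 13.6, 22.6 and 64.9 CPM in fasted WT/Y657* mice, a log2 fold change of 4.81 (SE 1.04, adjusted p = 6.0e-04). The difference from the wild-type response was 5.16 (SE 1.32, adjusted p = 0.0217), and 0.39 (adjusted p = 0.898) without ALC_WT_847 and ALC_WT_849, which stood at 89.8 and 52.5 CPM against at most 1.35 CPM in the other fed wild-type mice. Its neighbour Mt1 rose (2.41 to 18.9 CPM in fed and 48.4 to 196 CPM in fasted mice, log2 fold change 3.75, SE 0.95, adjusted p = 0.00282). Fkbp5, a glucocorticoid receptor co-chaperone that the receptor induces, was at 18.01, 23.6 and 29.2 CPM in fed and 48.0, 84.3 and 119 CPM in fasted mice (log2 fold change 1.81, SE 0.20, adjusted p = 9.3e-09), and its difference from the wild-type response was 1.07 (SE 0.27, adjusted p = 0.0208), 0.93 (adjusted p = 0.0883) without those mice. Tsc22d3, the glucocorticoid-induced leucine zipper GILZ, rose by 0.89 (SE 0.25, adjusted p = 0.00545) and Per1, a clock gene that the receptor also induces, by 1.71 (SE 0.33, adjusted p = 1.6e-04). Nr3c1, the receptor, fell (131 to 170.0 CPM in fed and 84.9 to 115 CPM in fasted mice, log2 fold change -0.56, SE 0.075, adjusted p = 2.8e-07). With only ALC_MT_857 to ALC_MT_859 as the baseline 7 members were higher, and with only ALC_MT_866 to ALC_MT_869 9. The response of 4 members was called different from that of wild-type mice, and of 2 without ALC_WT_847 and ALC_WT_849. List averages were -0.62 to -0.11 in fed and 0.48 to 1.36 in fasted WT/Y657* mice. In the promoters 7 of 14 matched members (50.0%) hold a metal response element core, TGCACNC or TGCGCNC on either strand, against 28.2% of all genes.

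**Figure D3:**
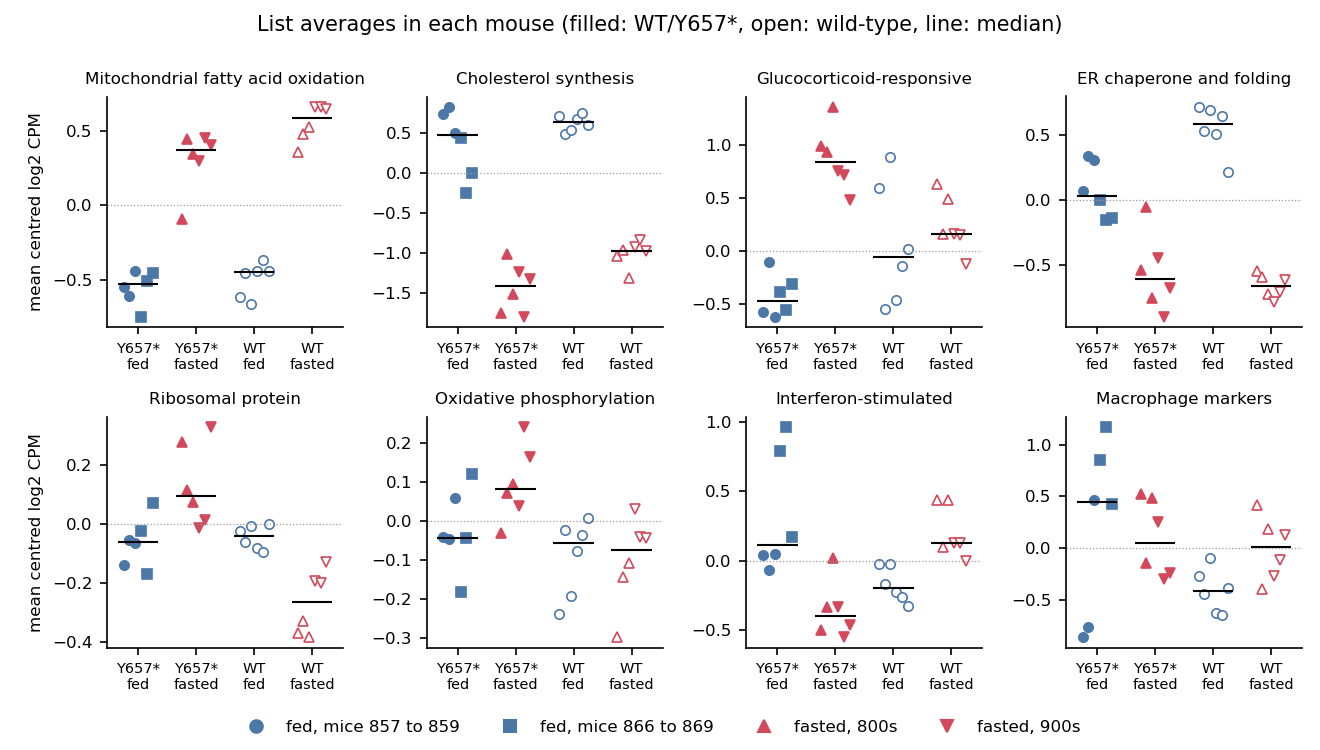
Average of centred log2 CPM over the members of 8 lists in each fed (blue) and fasted (red) mouse, filled for WT/Y657* and open for wild-type mice, with the median as a line and symbols for the mouse number series. Fasted WT/Y657* mice lie above fed ones without overlap for mitochondrial fatty acid oxidation and glucocorticoid-responsive genes and below them for cholesterol synthesis, while ALC_MT_866 and ALC_MT_868 stand highest for interferon-stimulated genes and macrophage markers.

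Genes of the endoplasmic reticulum (ER) folding machinery fell. Of 32 chaperone, translocation and unfolded protein response genes, 25 were lower and 0 higher, with a median of -0.62. Secretory proteins of the hepatocyte enter the ER through the Sec61 channel and are folded by the chaperones of this list, whose genes are induced through ATF6 and XBP1 at a paired promoter element, the ER stress response element (ERSE). The promoters of 3 chaperone or folding genes are shown for that element, the stretch 5′ to 3′ on the strand of the gene (RefSeq, GRCm38.p6), with the letters CCAAT and CCACG, which lie 9 bases apart, or their reverse complement, in capitals.
Hspa5 promoter, chr2:34771980-34772088, plus strand: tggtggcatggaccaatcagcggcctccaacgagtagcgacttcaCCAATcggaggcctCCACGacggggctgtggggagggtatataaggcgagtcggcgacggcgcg
Hsp90b1 promoter, chr10:86705488-86705596, minus strand: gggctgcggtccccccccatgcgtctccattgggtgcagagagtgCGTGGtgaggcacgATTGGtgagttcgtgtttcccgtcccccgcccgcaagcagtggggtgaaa
Creld2 promoter, chr15:88819475-88819583, plus strand: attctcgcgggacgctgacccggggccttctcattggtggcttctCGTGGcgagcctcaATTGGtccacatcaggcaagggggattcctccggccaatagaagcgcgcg
Promoters were found for 26 of the 32 genes, and 9 of them (34.6%) held the element, on either strand within 250 bases before to 50 after the start, against 0.137% of 27025 genes. Of the 9 with the element 5 fell, and of the 17 without it 15 fell. A match describes the sequence and is not evidence that a factor was bound.

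Hspa5, which encodes the chaperone BiP, was at 865.9, 1091 and 1488 CPM in fed and 487, 600.3 and 1488 CPM in fasted WT/Y657* mice (log2 fold change -0.61, SE 0.20, adjusted p = 0.019). Fasted mouse ONF_MT_826 stood at 1488 CPM, as high as the highest fed mouse, and the other fasted mice at up to 771 CPM. The same mouse was highest for Hsp90b1, the ER chaperone GRP94, at 1142 CPM against 681 in the next, and for Creld2, a disulphide isomerase, at 64.1 against 31.1. Hsp90b1 fell (log2 fold change -0.54, SE 0.15, adjusted p = 0.0041), as did the chaperone Hyou1 (log2 fold change -1.06, SE 0.19, adjusted p = 6.3e-05) and the ER-resident Sdf2l1 (log2 fold change -1.47, SE 0.31, adjusted p = 4.6e-04), while Creld2 was not called (log2 fold change -0.55, SE 0.28, adjusted p = 0.141). Xbp1, the transcription factor, fell (197 to 287 CPM in fed and 124 to 174 CPM in fasted mice, log2 fold change -0.74, SE 0.11, adjusted p = 1.8e-06), and Sec61b, a subunit of the translocation channel, fell too (30.8 to 44.1 CPM in fed and 14.2 to 23.8 CPM in fasted mice, log2 fold change -0.98, SE 0.092, adjusted p = 1.1e-10), both without overlap. In wild-type mice all 32 members were lower, with a median of -1.12 (32 and -1.07 without ALC_WT_847 and ALC_WT_849), and the responses of 11 members differed, each less negative in WT/Y657* mice, with a difference of 0.96 (SE 0.28, adjusted p = 0.0468) for Hspa5 and 2.13 (SE 0.40, adjusted p = 0.00261) for Creld2. Without ALC_WT_847 and ALC_WT_849 the number was 4, and the differences no longer called included those of Hspa5 at 0.79 (adjusted p = 0.166), Hsp90b1 at 0.57 (adjusted p = 0.165), Hyou1 at 0.91 (adjusted p = 0.0926) and Sdf2l1 at 1.40 (adjusted p = 0.104). Fed WT/Y657* mice had list averages of -0.15 to 0.34 and fed wild-type mice of 0.21 to 0.71, while the fasted mice had -0.89 to -0.051 and -0.78 to -0.55. The number of members lower was 25 with ALC_MT_857 to ALC_MT_859 alone and 18 with ALC_MT_866 to ALC_MT_869 alone, and the number that differed between genotypes was 2 and 16. With the lower-numbered fasted mice alone 4 responses differed, and with the higher-numbered fasted mice alone 1.

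Cytosolic ribosomal protein genes rose by small amounts, 41 of 65 with a median of 0.21 and 3 lower, and groups did not overlap for 8 that were higher. Rpl41, which encodes the smallest of these proteins, was at 74.5, 82.7 and 95.8 CPM in fed and 92.4, 111 and 129 CPM in fasted WT/Y657* mice (log2 fold change 0.40, SE 0.087, adjusted p = 5.1e-04). Rpl9 rose by 0.52 and Rps27 by 0.71 without overlap, Rps6, the S6 kinase substrate, by 0.35, and Rplp0, of the ribosomal stalk, was not called (log2 fold change 0.087, SE 0.064). In wild-type mice 37 members were lower and 0 higher, with a median of -0.23 (29, 0 and -0.22 without ALC_WT_847 and ALC_WT_849), and the response of 44 members differed between genotypes, always in the direction of WT/Y657* above wild-type. For Rplp0 the difference was 0.50 (SE 0.091, adjusted p = 0.00137) and for Rpl41 0.76 (SE 0.12, adjusted p = 5.8e-04). The count of members higher was 34 with ALC_MT_857 to ALC_MT_859 alone, 18 with ALC_MT_866 to ALC_MT_869 alone, 34 with the lower-numbered fasted mice and 26 with the higher-numbered fasted mice. The number that differed between genotypes was 29 without ALC_WT_847 and ALC_WT_849, 46 with the lower-numbered fasted mice alone and 1 with the higher-numbered fasted mice alone.

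Of 75 genes of oxidative phosphorylation subunits 29 were higher and 5 lower in WT/Y657* mice, with a median of 0.14. Cox4i1, a subunit of cytochrome c oxidase, rose (259 to 345 CPM in fed and 381 to 438 CPM in fasted mice, log2 fold change 0.48, SE 0.063, adjusted p = 2.2e-07), as did Ndufa1, of complex I (38.5 to 51.4 CPM in fed and 51.5 to 67.7 CPM in fasted mice, log2 fold change 0.41, SE 0.068, adjusted p = 1.0e-05), whereas Ndufs1, the large iron-sulphur subunit of the same complex, was not called (log2 fold change -0.21, adjusted p = 0.0531). In wild-type mice 3 were higher and 3 lower. The response of 13 members lay above that of wild-type mice, of 7 with the lower-numbered and 0 with the higher-numbered fasted mice alone, of 5 with ALC_MT_857 to ALC_MT_859 and 7 with ALC_MT_866 to ALC_MT_869 alone, and of 4 without the filter on low counts. Both lists hold short transcripts: 39 of 65 ribosomal and 52 of 75 respiratory genes are in the shortest of 5 equal length classes of all genes, where the median log2 fold change of WT/Y657* mice was 0.053 and 18.6% were higher, against -0.043 and 12.2% in the longest class. With offsets for length and GC content, 36 ribosomal protein genes and 23 respiratory genes were higher, and the responses that differed between genotypes numbered 42 and 4. The part of RNA quality in these small shifts was not tested. The mitochondrially encoded share of counts was 7.38 to 9.63% in fed and 5.49 to 12.8% in fasted mice.

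Interferon-stimulated genes fell in WT/Y657* liver, 18 of 35 with a median of -0.80 and 0 higher. These genes, induced at interferon-stimulated response elements (ISRE), encode antiviral and antigen-processing proteins. The element searched was GAAANNGAAA, with N for any base, on either strand, and 3 promoters that hold it are shown with the match in capitals (RefSeq, GRCm38.p6), the first from a member that fell and whose response differed between genotypes, the second from a member that was not called and the third from one that fell in both genotypes. Overlapping matches were not marked: in the Bst2 promoter a further match begins within the capitals and runs on into the lower-case letters.
Ifit1 promoter, chr19:34640759-34640858, plus strand: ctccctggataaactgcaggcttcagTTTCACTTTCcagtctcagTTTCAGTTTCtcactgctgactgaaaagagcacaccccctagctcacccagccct
Rsad2 promoter, chr12:26456518-26456617, minus strand: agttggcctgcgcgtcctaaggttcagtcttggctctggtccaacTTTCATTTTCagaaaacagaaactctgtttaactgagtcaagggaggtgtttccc
Bst2 promoter, chr8:71537548-71537647, minus strand: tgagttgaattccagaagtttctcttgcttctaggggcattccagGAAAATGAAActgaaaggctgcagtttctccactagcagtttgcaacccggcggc
Of 24 members with a promoter 15 (62.5%) held the element, against 3.99% of all genes. In WT/Y657* mice 10 of the 15 with it and 4 of the 9 without it fell. As for the chaperones, a match is a description of the letters alone.

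Oasl1, an oligoadenylate synthetase-like protein, was at 11.6, 14.5 and 25.1 CPM in fed and 3.93, 6.02 and 9.47 CPM in fasted mice, without overlap (log2 fold change -1.35, SE 0.22, adjusted p = 1.0e-05), and ALC_MT_857 was the highest of the fed mice. Ifit1, an RNA-binding antiviral protein, fell without overlap (7.25 to 13.6 CPM in fed and 3.63 to 6.55 CPM in fasted mice, log2 fold change -0.84, SE 0.21, adjusted p = 0.00166). The fall of Ifit1 was not called with ALC_MT_857 to ALC_MT_859 alone. Rsad2, the antiviral enzyme viperin, overlapped, at 10.1, 16.1 and 26.99 CPM in fed and 11.2, 14.1 and 27.01 CPM in fasted mice (log2 fold change -0.17, adjusted p = 0.649), as did Irf7, the interferon regulatory factor (-0.45, adjusted p = 0.132). Bst2, which tethers virions, fell by 0.63 (SE 0.10, adjusted p = 1.1e-05) and by 0.67 in wild-type mice. In wild-type mice 8 members of the list were higher and 1 lower, and the response of 16 members differed between genotypes, of 12 without ALC_WT_847 and ALC_WT_849, of 4 with the lower-numbered fasted mice alone and of 2 with the higher-numbered fasted mice alone. The difference was -1.96 (SE 0.29, adjusted p = 2.8e-04) for Ifit1 and -1.84 (SE 0.36, adjusted p = 0.00337) for Rsad2, both called under every alternative tried. With ALC_MT_857 to ALC_MT_859 alone 9 members were lower and 6 differed between genotypes, and with ALC_MT_866 to ALC_MT_869 alone 25 and 22.

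The list average of interferon-stimulated genes was 0.80 and 0.96 in ALC_MT_866 and ALC_MT_868, and from -0.070 to 0.17 in the other fed mice. The macrophage markers were also highest in these mice: their list average was 0.85 and 1.17 there, and from -0.86 to 0.47 in the other fed mice. Lymphocyte markers were highest in the same mice (1.29 and 0.80), and neutrophil markers in ALC_MT_866 (1.57) and ALC_MT_869 (1.47). The lists did not always go together: fasted mouse ONF_MT_806 had 0.53 for macrophage markers and -0.50 for interferon-stimulated genes. None of the 12 macrophage markers was called on fasting, but with ALC_MT_866 to ALC_MT_869 alone 7 were lower and 5 differed between genotypes. Their median was -0.37 in the whole comparison, and their summed level was 321 to 1136 CPM in fed and 409 to 697 CPM in fasted mice. In bulk liver, fewer macrophages and less RNA per macrophage cannot be told apart, and the part of macrophage content in the interferon result was not tested.

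Of 28 acute-phase genes 4 were higher and 2 lower in WT/Y657* liver, where wild-type mice had 13 lower and 0 higher (2 and 2 without ALC_WT_847 and ALC_WT_849). Of all genes 15.2% were higher and 17.7% lower in WT/Y657* liver. Lbp, which presents lipopolysaccharide, rose without overlap (52.0 to 73.1 CPM in fed and 138 to 171 CPM in fasted mice, log2 fold change 1.25, SE 0.28, adjusted p = 8.8e-04), and its difference from the wild-type response, 1.41 (SE 0.39, adjusted p = 0.0355), was 0.70 (adjusted p = 0.239) without ALC_WT_847 and ALC_WT_849. The interleukin 6 receptor gene Il6ra rose (13.1 to 22.7 CPM in fed and 25.3 to 42.2 CPM in fasted mice, log2 fold change 0.88, SE 0.14, adjusted p = 4.5e-06), with a difference from the wild-type response of 1.01 (SE 0.19, adjusted p = 0.00256). Haptoglobin (Hp) was not called in WT/Y657* mice (log2 fold change 0.59, SE 0.31, adjusted p = 0.152), and its difference of 1.54 (SE 0.44, adjusted p = 0.0396) was 0.95 (adjusted p = 0.222) without ALC_WT_847 and ALC_WT_849. Over the list, the response of 6 members lay above that of wild-type mice, and of 1 without these mice, the member that remained being Il6ra.

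Of 34 amino acid catabolism and urea cycle genes 13 were lower and 6 higher, with a median of -0.20. These are 38.2% lower and 17.6% higher, beside 17.7% and 15.2% of all genes. With ALC_MT_857 to ALC_MT_859 alone 8 were lower and 5 higher, and with ALC_MT_866 to ALC_MT_869 alone 10 and 3. The counts were 10 and 5 with the lower-numbered and 8 and 3 with the higher-numbered fasted mice alone. Aldh4a1, of proline breakdown, fell (378 to 486 CPM in fed and 188 to 299.5 CPM in fasted mice, log2 fold change -0.82, SE 0.10, adjusted p = 2.0e-08), and its difference from the wild-type response, -0.67 (SE 0.14, adjusted p = 0.00382), was called under every alternative tried. Haao, of the kynurenine route, fell (421 to 503.6 CPM in fed and 204 to 291 CPM in fasted mice, log2 fold change -0.83, SE 0.087, adjusted p = 1.6e-09), whereas Tdo2, which opens that route, rose (1388 to 1787 CPM in fed and 2346 to 3355 CPM in fasted mice, log2 fold change 0.80, SE 0.10, adjusted p = 4.3e-08). In the urea cycle, Cps1, its first enzyme, was not called (log2 fold change -0.38, SE 0.15, adjusted p = 0.0519) and Arg1, its last, was called higher with overlapping groups (log2 fold change 0.38, SE 0.14, adjusted p = 0.038).

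Among 22 clock and clock output genes 4 were higher and 5 lower, shares close to the 15.2% and 17.7% of all genes. The fasted series differed: with the lower-numbered fasted mice alone 5 were higher and 11 lower, and with the higher-numbered alone 2 and 2. List averages were -0.76 to -0.33 in the lower-numbered and -0.22 to -0.089 in the higher-numbered fasted mice. The repressor Nr1d1 (REV-ERBα) fell (23.4 to 34.8 CPM in fed and 6.57 to 23.2 CPM in fasted mice, log2 fold change -0.87, SE 0.27, adjusted p = 0.0133) without overlap, and the output factor Dbp fell with overlap, at 12.9, 23.4 and 42.9 CPM in fed and 0.907, 9.60 and 22.98 CPM in fasted mice (log2 fold change -1.38, SE 0.50, adjusted p = 0.0352). Bhlhe40, a repressor that feeding also induces, fell by 1.997 (SE 0.30, adjusted p = 5.0e-06). Arntl and Clock, the activators of the loop, had log2 fold changes of 0.34 (adjusted p = 0.515) and 0.33 (adjusted p = 0.00235), and Per2 of -0.75 (adjusted p = 0.0536). An E-box, CACGTG, was found in the promoters of 5 of 18 matched members (27.8%) and of 8.09% of all genes, and 0 of these 5 were lower on fasting. Because the hour of killing is not known, the clock genes cannot be read as a response to food.

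Autophagy genes were mostly higher where called, 12 of 32 against 5 lower, beside 15.2% and 17.7% of all genes. The number higher was 8 with either fasted series alone, and 7 to 12 over all alternatives. Bnip3, a receptor for the removal of mitochondria, rose, at 95.0, 113 and 145 CPM in fed and 270.5, 329 and 377 CPM in fasted mice (log2 fold change 1.51, SE 0.10, adjusted p = 5.2e-15), with a difference from the wild-type response of 0.50 (SE 0.13, adjusted p = 0.0226). The autophagosome proteins Map1lc3b and Gabarapl1 rose by 0.68 (SE 0.070, adjusted p = 8.5e-10) and 0.58 (SE 0.10, adjusted p = 1.7e-05). Sqstm1, the cargo receptor p62, was not called in WT/Y657* mice (log2 fold change 0.055). Of 28 cell cycle genes 10 were lower and 3 higher, beside 17.7% and 15.2% of all genes, and 6 were lower with ALC_MT_857 to ALC_MT_859 alone. Their list average was 0.60 and 0.83 in ALC_MT_866 and ALC_MT_868, the fed mice with the highest interferon and macrophage averages, and at most 0.27 in the other fed mice. Fasted mouse ONF_MT_827 had 0.62, and the other fasted mice at most 0.0985. The part of other cell types in the cell cycle count was not tested. Mcm5, of the replicative helicase, fell (2.51 to 9.78 CPM in fed and 0.502 to 2.46 CPM in fasted mice, log2 fold change -2.06, SE 0.30, adjusted p = 1.1e-06) and the proliferation marker Mki67 fell with overlap (1.79 to 14.3 CPM in fed and 1.89 to 5.05 CPM in fasted mice, log2 fold change -1.27, SE 0.32, adjusted p = 0.00205). Cdkn1a, the cell cycle inhibitor p21, rose, at 0.674, 1.505 and 3.81 CPM in fed and 1.93, 13.4 and 59.2 CPM in fasted mice (log2 fold change 3.30, SE 0.67, adjusted p = 2.5e-04), with groups that overlap. It was at 17.3 to 59.2 CPM in the lower-numbered and 1.93 to 9.58 CPM in the higher-numbered fasted mice. With the higher-numbered fasted mice alone the rise was not called.

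For 607 genes, or 4.35%, the fasting response itself differed between genotypes, with the response of WT/Y657* mice above that of wild-type mice in 2.59% and below it in 1.76%. Among genes that changed in WT/Y657* mice it was called for 380 (8.28%). These calls depended on which mice entered. With the lower-numbered fasted mice alone 415 genes were called, with the higher-numbered fasted mice alone 44, with ALC_MT_857 to ALC_MT_859 alone 378, with ALC_MT_866 to ALC_MT_869 alone 1127, and without ALC_WT_847 and ALC_WT_849 309. Of the 43 genes named here with a called difference, 7 were called under every alternative: Srebf1, Bdh1, Fbp1, Aldh4a1 and the interferon-stimulated Ifit1 and Rsad2, all with the WT/Y657* response the lower, and Il1r1, the interleukin 1 receptor gene, with it the higher.

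**Figure D4:**
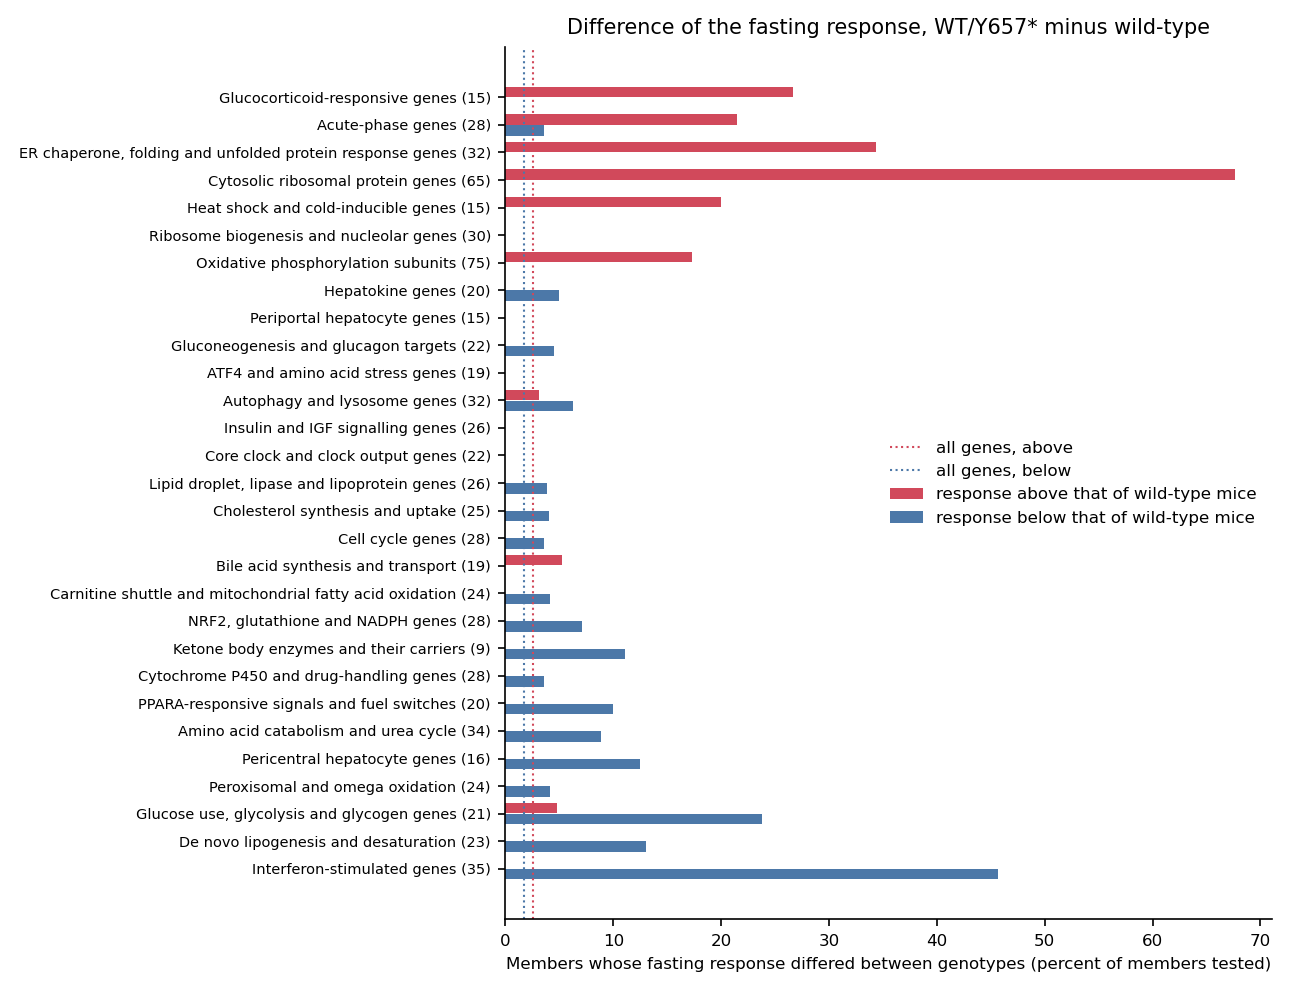
Share of the members of each of 29 lists (percent of members tested, number tested in brackets) whose fasting response in WT/Y657* mice lay above (red) or below (blue) that of wild-type mice at an adjusted p below 0.05, with dotted lines for all genes (2.59% above, 1.76% below). Ribosomal protein genes, with 44 of 65 above, and interferon-stimulated genes, with 16 of 35 below, stand farthest from the lines, and these shares include all fed wild-type mice.

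Besides Mt2 and Creld2, the 8 genes with the largest positive differences were Saa3, Scara5, Btg3, Eif4ebp3, Rab38 and Il1r1. Il1r1 was at 24.1, 30.8 and 52.7 CPM in fed and 28.2, 42.1 and 48.1 CPM in fasted WT/Y657* mice, not called in them (log2 fold change 0.25, SE 0.22, adjusted p = 0.408), and fell by 1.80 in wild-type mice, a difference of 2.05 (SE 0.31, adjusted p = 5.7e-04). For Saa3, a serum amyloid, the WT/Y657* mice were at 3.98, 4.78 and 8.58 CPM fed and 2.77, 4.17 and 9.07 CPM fasted, and the difference of 4.25 (SE 1.24, adjusted p = 0.0444) was 0.60 (adjusted p = 0.726) without ALC_WT_847 and ALC_WT_849. Eif4ebp3, an inhibitor of cap-dependent translation, was the 1 member of these 6 called in WT/Y657* mice, at 3.40, 6.83 and 13.5 CPM fed and 12.6, 27.6 and 46.1 CPM fasted (log2 fold change 1.82, SE 0.39, adjusted p = 4.6e-04). Scara5, a ferritin receptor, Btg3, an antiproliferative factor, and Rab38, a small GTPase, were not called in WT/Y657* mice (log2 fold changes -1.32, 0.29 and 0.51), and their differences were 3.19, 2.68 and 2.08. Without ALC_WT_847 and ALC_WT_849 the differences of Scara5, Rab38 and Eif4ebp3 were no longer called, at 2.79 (adjusted p = 0.0858), 1.49 (adjusted p = 0.206) and 2.10 (adjusted p = 0.0541).

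The differences of Cyp2b9 and Slc22a26 were not called without ALC_MT_866. Cyp2b9, a cytochrome P450 that is female-biased in mice, had a difference of -11.66 (SE 2.18, adjusted p = 0.0026), yet its level in fed WT/Y657* mice was 23.99 CPM in mouse ALC_MT_866 and at most 0.0630 CPM in the other 5, and without that mouse the log2 fold change of WT/Y657* mice turned from -3.81 to 3.65. The organic anion transporter Slc22a26 repeated this, with mouse ALC_MT_866 at 14.3 CPM and the next fed mouse at 0.429 CPM, and its log2 fold change turned from -1.75 to 1.26. Id1, an inhibitor of differentiation factors, was not called in WT/Y657* mice (log2 fold change -0.62, SE 0.44, adjusted p = 0.294), with ALC_MT_866 at 20.2 CPM and the next fed mouse at 5.80 CPM, and rose by 2.13 in wild-type mice. Its difference of -2.75 (SE 0.63, adjusted p = 0.0113) was still called without ALC_MT_866 but not with ALC_MT_857 to ALC_MT_859 alone. The guanylate-binding proteins Gbp1 and Gbp10, which are induced by interferon, had log2 fold changes of -1.43 and -2.71 in WT/Y657* mice and differed from the wild-type response by -2.67 (SE 0.62, adjusted p = 0.0113) and -2.68 (SE 0.66, adjusted p = 0.0173), though not with ALC_MT_857 to ALC_MT_859 alone. Serpinb1a, a neutrophil protease inhibitor, was not called in WT/Y657* mice (1.17, 3.81 and 4.78 CPM fed, 2.18, 4.01 and 6.36 CPM fasted, log2 fold change 0.25, SE 0.31) and rose by 2.82 in wild-type mice, a difference of -2.57 (SE 0.45, adjusted p = 0.00137). Krt23, a keratin, and Hamp2, a hepcidin, had differences of -2.77 (SE 0.78, adjusted p = 0.0355) and -2.90 (SE 0.86, adjusted p = 0.0472), neither called without ALC_WT_847 and ALC_WT_849, and the same held for Slc22a26.

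**Figure D5:**
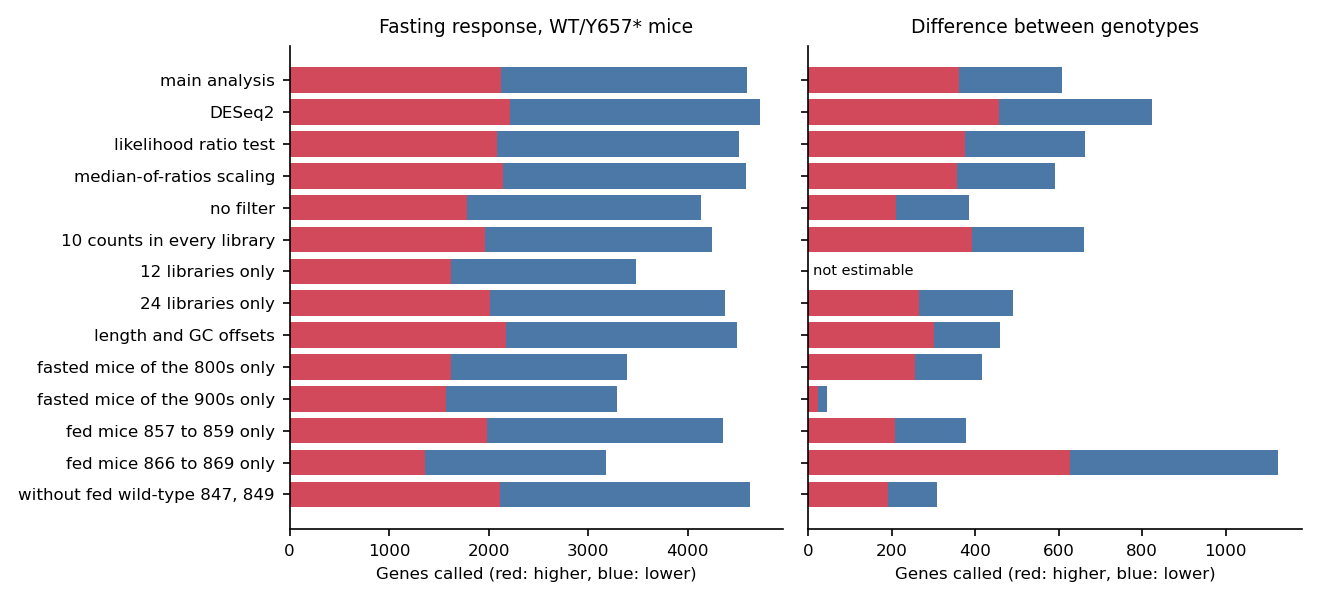
Number of genes called for the fasting response of WT/Y657* mice (left) and for its difference from wild-type mice (right) in the main analysis and under each alternative, with higher genes in red and lower genes in blue. The response count stays between 3176 and 4722, whereas the difference count ranges from 44 with the higher-numbered fasted mice alone to 1127 with ALC_MT_866 to ALC_MT_869 alone.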

How the data were processed

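Livers were lysed and RNA sequenced by the authors, who deposited a table of estimated counts per Ensembl gene and tested it with edgeR. The labels name Cuffdiff, SAMtools and featureCounts (versions not given in the sources used here), and the column names carry a Cufflinks file suffix, so which tool made the counts is uncertain. The notes name mm9, whereas the gene positions in the table equal those of GENCODE M21 on GRCm38 for 16061 genes, so coordinates are given on GRCm38. A deposited second table of fitted counts was not used. Of the non-zero values 3.638% were not whole and all were rounded. Genes were filtered with filterByExpr, scaled by TMM and fitted over all 36 libraries in 6 groups with the edgeR (4.0.16, R 4.3.3) quasi-likelihood test, and p-values were adjusted over 13945 genes by the Benjamini-Hochberg method. The fit was tested on simulated counts. No source states whether counting used strand.

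Named were the 12 genes that rose and the 12 that fell most (called, mean CPM of at least 1 in the higher group, no overlap), the anchors and the 3 smallest p of each pathway list, the 8 largest differences in each direction, and Pik3r1. Pecr and Insig2 were named after their values were seen. Certain items are not reported here. Members and lists were chosen with earlier results of these data known. Alternatives were DESeq2 (1.42.0), the likelihood ratio test, median-of-ratios scaling, no filter, at least 10 counts in every library, 12 or 24 libraries, each fasted series alone, length and GC offsets, and each mouse left out. Chosen after seeing the data were each set of fed WT/Y657* mice alone and the omission of ALC_WT_847 and ALC_WT_849. Promoters were RefSeq windows of 250 bases before to 50 after the start.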

Additional observations from a re-analysis of the deposited data

Results flagged for a closer look

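In 260 groups of 6 mice (130 named genes, fed and fasted WT/Y657* mice), 22 had a mouse farther from the others than Dixon's 95% critical value allows, 10 in fed and 12 in fasted mice. Chance flags about 1 in 20 groups where values are independent and normally distributed. The values used were CPM without a log and the genes share mice, so the 22 cannot be set against that rate.

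Fed mouse ALC_MT_866 stood above the other fed mice for Cyp2b9 (23.99 CPM against 0.0630 in the next), Slc22a26 (14.3 against 0.429), Id1 (20.2 against 5.80) and Chrna4 (6.14 against 3.23). Fed mouse ALC_MT_858 stood above for Aacs (233 CPM), fed mouse ALC_MT_857 for Oasl1 (25.1 CPM), fed mouse ALC_MT_868 for Gbp10 (27.7 CPM) and fed mouse ALC_MT_869 for Mfsd2a (34.9 CPM), Haao (503.6 CPM) and Map1lc3b (78.4 CPM). Fasted mouse ONF_MT_826 stood above the other fasted mice for the chaperone genes Hspa5 (1488 CPM), Hsp90b1 (1142 CPM) and Creld2 (64.1 CPM), the sterol-regulated Sqle (17.2 CPM) and Aacs (13.5 CPM), and G0s2 (293 CPM). Fasted mouse ONF_MT_827 stood above for Apoa4 (3175 CPM), Elovl6 (79.1 CPM) and Bst2 (100.1 CPM), and fasted mouse ONF_MT_921 for Cyp2b9 (1.34 CPM). Fasted mouse ONF_MT_806 stood below the others for the fatty acid oxidation genes Acadm (420.4 CPM) and Slc25a20 (162 CPM).

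The fasting response differed between genotypes, by the edgeR quasi-likelihood test of the difference, for 43 named genes. The response of WT/Y657* mice lay below that of wild-type mice on the log2 scale by a difference of -1.24 for Srebf1, -0.73 for Bdh1, -0.53 for Plin2, -1.06 for Fbp1, -0.71 for Pygl, -0.67 for Aldh4a1 and -0.39 for Sqstm1. Among interferon-stimulated genes the difference was -1.27 for Oasl1, -1.96 for Ifit1, -1.84 for Rsad2, -2.67 for Gbp1 and -2.68 for Gbp10. It was -11.66 for Cyp2b9, -4.15 for Slc22a26, -2.90 for Hamp2, -2.77 for Krt23, -2.75 for Id1 and -2.57 for Serpinb1a.

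Above the wild-type response lay the glucocorticoid-responsive Mt2 (5.16), Fkbp5 (1.07) and Tsc22d3 (1.45), the ER genes Hspa5 (0.96), Hsp90b1 (0.71), Hyou1 (1.03), Sdf2l1 (1.62) and Creld2 (2.13), and the ribosomal protein genes Rplp0 (0.50), Rps6 (0.47), Rpl41 (0.76), Rpl9 (0.67) and Rps27 (0.60). So did the respiratory genes Cox4i1 (0.35) and Ndufa1 (0.41), the acute-phase genes Lbp (1.41), Il6ra (1.01), Hp (1.54) and Saa3 (4.25), and Bnip3 (0.50), Scara5 (3.19), Btg3 (2.68), Eif4ebp3 (2.24), Rab38 (2.08) and Il1r1 (2.05). Without ALC_WT_847 and ALC_WT_849, 20 of the 43 differences were no longer called, among them Pygl at -0.60 (adjusted p = 0.0556), Sqstm1 at -0.38 (adjusted p = 0.0701), Rps6 at 0.40 (adjusted p = 0.0839), Rps27 at 0.51 (adjusted p = 0.111) and Slc22a26 at -4.41 (adjusted p = 0.0749), and with the higher-numbered fasted mice alone 35.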

How the results depend on the processing

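Of 103 named genes called for fasting in WT/Y657* mice, 84 were called under every alternative and 19 were lost in at least 1 (Mt1, Ppp1r3b, Srebf2, Igfbp1, Irs2, Hspa5, Hsp90b1, Arg1, Dbp, Cyp8b1, Tsc22d3, Ifit1, Gbp1, Nr1d1, Clock, Mki67, Cyp2b9, Hamp2 and Cdkn1a). The number of genes called in WT/Y657* mice was 4080 to 4605 with 1 mouse left out and 3176 to 4722 under the other alternatives, with 1358 higher when only ALC_MT_866 to ALC_MT_869 were used. The genotype difference moved most. Its 607 calls (361 higher, 246 lower) became 386 (211 higher) without the filter, 44 (23 higher, 21 lower) with the higher-numbered fasted mice, 378 (208 higher) with ALC_MT_857 to ALC_MT_859, 1127 (628 higher, 499 lower) with ALC_MT_866 to ALC_MT_869 and 309 (191 higher, 118 lower) without ALC_WT_847 and ALC_WT_849, and the lower calls were 159 with the lower-numbered fasted mice and 160 with length and GC offsets. With 1 mouse left out the higher calls ranged from 236 (without ALC_MT_868) to 427 and the lower calls from 161 (without ONF_MT_806) to 322. Fewer mice entered several of these fits, and other causes were not tested.

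In WT/Y657* mice the log2 fold change turned its sign with ALC_MT_857 to ALC_MT_859 alone for Rsad2 (0.27), Saa3 (0.21), Cyp2b9 (4.92), Slc22a26 (1.41), Krt23 (1.12), Id1 (0.94) and Il1r1 (-0.069), and with ALC_MT_866 to ALC_MT_869 alone for G6pc (0.62) and Insr (0.18). It turned with the higher-numbered fasted mice for Arntl (-0.34), Krt23 (0.16), Btg3 (-0.30) and Il1r1 (-0.036), with the lower-numbered for Rsad2 (0.031) and with length and GC offsets for Insr (0.061). Leaving out 1 mouse at a time gave ranges that hold both signs for G6pc (-0.35 to 0.013), Insr (-0.078 to 0.067), Saa3 (-0.41 to 0.0055), Cyp2b9 (-5.74 to 3.65), Slc22a26 (-2.01 to 1.26), Krt23 (-0.53 to 0.37) and Id1 (-0.85 to 0.19). Of these, Cyp2b9 alone was called in the main comparison. No paired analysis was possible because the mouse numbers are not shared between groups. With 12 libraries alone no difference could be fitted.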

Other observations

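Further lists were described by their counts alone, and several shares lie near the 15.2% of all genes that were higher and the 17.7% that were lower. Of 20 hepatokine genes 8 were higher and 3 lower, and of 19 ATF4 and amino acid stress genes 3 and 1. Cytochrome P450 and drug-handling genes were divided, with 8 of 28 higher and 8 lower, whereas of 28 NRF2, glutathione and NADPH genes 2 were higher and 7 lower. Of 15 heat shock and cold-inducible genes 4 were higher and 0 lower in WT/Y657* mice (median 0.064), beside 2 and 7 in wild-type mice (median -0.28). With ALC_MT_857 to ALC_MT_859 alone 2 were higher and 1 lower, and with ALC_MT_866 to ALC_MT_869 alone 8 and 0. The response of 3 differed between genotypes, of 1 without ALC_WT_847 and ALC_WT_849 and of 0 with the higher-numbered fasted mice alone. Of 30 ribosome biogenesis genes 2 were higher and 5 lower, beside 1 and 17 in wild-type mice (2 and 10 without ALC_WT_847 and ALC_WT_849). The response of 0 of these 30 was called different between genotypes. Along the lobule, 5 of 15 periportal genes were higher and 4 lower, and 2 of 16 pericentral genes were higher and 4 lower.

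On fasting 1 of 12 endothelial markers were higher and 0 lower, 1 of 12 stellate cell and fibroblast markers were higher and 3 lower, 1 of 8 lymphocyte markers, 1 of 6 cholangiocyte markers and 1 of 6 red cell markers were lower, and 0 of 5 neutrophil markers were higher. Of 4 adipocyte markers Cidec was higher (log2 fold change 2.86) and Car3 lower (-3.08), both named after their values were seen and both also genes of the hepatocyte, and the 1 pancreatic acinar marker with enough counts was lower (-1.19). With ALC_MT_866 to ALC_MT_869 alone as the baseline 7 of 12 macrophage markers were lower on fasting, and with ALC_MT_857 to ALC_MT_859 alone 0.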
